A study of Homo sapiens with 6 samples.

Results

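Translation initiation factors (eIFs) were represented by 47 of the 16934 genes in the count table, chosen as every gene whose symbol begins with EIF and a digit from 1 to 6, without the eIF2 kinases (EIF2AK) and the eIF4E-binding proteins (EIF4EBP). RNA had been sequenced from A375 cells, a long-established line from a human melanoma with mutant BRAF, grown in DMEM with serum and edited by CRISPR-Cas9 with Alt-R reagents. One group had received an sgRNA against POLK, the gene for the error-prone DNA polymerase kappa, and the other a non-targeting control sgRNA, so Cas9 editing reagents were common to both. There were 3 libraries in each group. The sources used here do not give the time between editing and RNA extraction or the site cut in POLK. The labels do not state whether a group's libraries were separate cultures, and the column names share 1 stem per group, so each group may be 1 edited population. The p-values therefore measure no more than how these libraries vary, possibly for technical reasons, and editing of POLK and any other difference between the populations cannot be told apart.

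Initiation factors bring the initiator tRNA, the small ribosomal subunit and the capped mRNA together and find the start codon. eIF2 delivers the initiator tRNA and eIF2B recharges it with GTP, eIF3 holds the complex together, the eIF4 factors recognise the mRNA cap and unwind the leader, eIF1, eIF1A and eIF5 control start codon choice, and eIF5B joins the large subunit. In melanoma with mutant BRAF, formation of the cap-binding complex eIF4F (eIF4E, eIF4A and eIF4G) has been tied to resistance to BRAF inhibitors, and stress kinases act on eIF2 and through it on eIF2B.

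Of the 47 genes, 45 passed the filter on low counts and were tested. EIF4E3, with 53 counts over the 6 libraries, and EIF1AY, with 9, did not. Between 42852645 and 56891905 counts were recorded per library, and the 47 genes took 1.254 to 1.273% of them in every library. Their summed level was 12711 ± 129 CPM (counts per 1000000 on scaled library sizes, CPM; mean ± SD, n = 3) in control and 12548 ± 78.1 CPM in POLK sgRNA libraries. POLK itself was at 23.3 ± 0.842 CPM and 18.2 ± 1.003 CPM, or 78.0% of control (adjusted p 7.9e-08, edgeR). The melanoma label was met by SOX10 at 1060.1 ± 12.5 CPM and 1155 ± 28.99 CPM and S100B at 69.8 ± 4.98 CPM and 88.6 ± 0.217 CPM, while the pigment genes PMEL, MLANA, TYR, DCT and TYRP1 were under 1 CPM on average in both groups. Leukocyte markers summed to 17.6 to 18.0 CPM in control and 58.1 to 60.3 CPM in POLK sgRNA libraries. Their defining genes PTPRC and CD3E were under 0.04 CPM on average in both, and CD68 and LYZ made up most of the sum. Epithelial markers, mostly KRT18, summed to 104.5 to 107 and 156 to 162 CPM. Endothelial markers summed to 2.93 to 3.90 and 5.57 to 6.04 CPM and fibroblast markers to 8.79 to 11.2 and 12.5 to 13.7 CPM. The part of these markers in the results was not tested.

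Initiation factor transcripts moved in both directions, and the summed level of all of them differed between groups by less than 2 control SDs. With the POLK sgRNA, 17 of the 45 tested genes rose and 20 fell (adjusted p under 0.05 by Benjamini-Hochberg over all 13930 genes tested, edgeR's quasi-likelihood test), and 8 did not pass. The background was wide: 32.8% of all tested genes rose and 31.6% fell, 64.3% together, against 82.2% of the initiation factors. These factors are well expressed, and of the 4573 genes with a control mean of at least 50 CPM 27.6% rose and 45.6% fell, while of the 37 factors above that level 16 rose and 17 fell. The median log2 fold change was −0.042 for the factors and 0.0083 for all tested genes. In bulk RNA, fewer cells with a transcript and less of it per cell cannot be told apart.

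Most of these changes were small. A log2 fold change of at least 0.32 in size was reached among genes that passed by 4 that rose (8.89% of the 45, against 16% of all tested genes) and 6 that fell (13.3%, against 12.8%). The 4 were EIF2S2, EIF4B, EIF2B1 and EIF2D, and the 6 were EIF4G1, EIF2B4, EIF4A2, EIF2B5, EIF5AL1 and EIF5B. In each of these 10 genes the 3 libraries of one group lay apart from the 3 of the other, as they did in 39 of the 45 factors (86.7%) and in 67.7% of all tested genes.

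**Figure D1:**
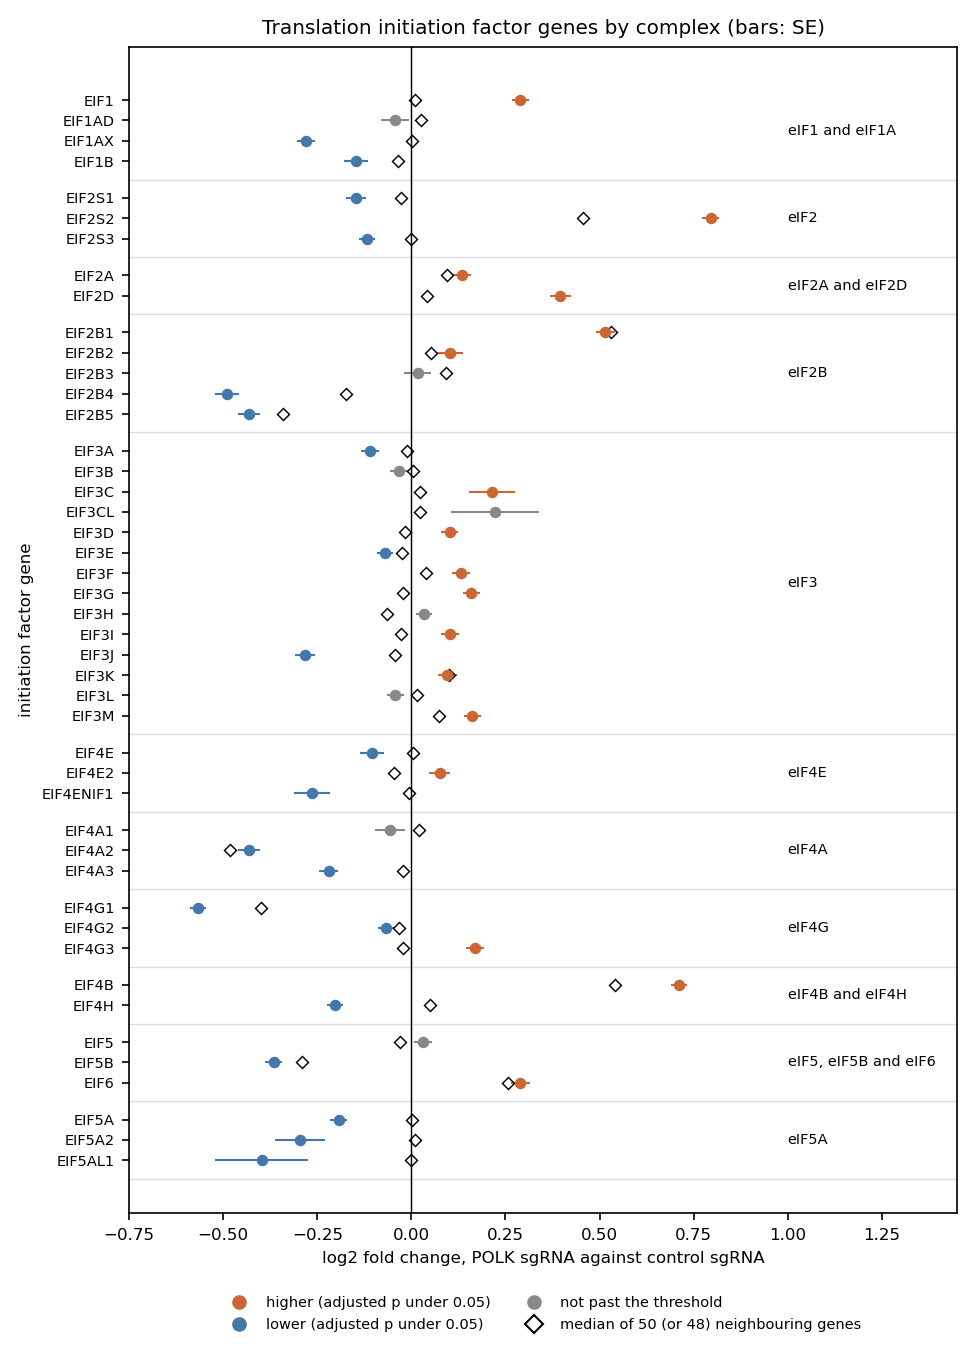
Log2 fold change (x axis, POLK sgRNA against control sgRNA) of the 45 tested initiation factor genes, ordered by complex, with SE as bars and the median log2 fold change of neighbouring genes as open diamonds. EIF2S2 and EIF4B lie farthest right at 0.80 and 0.71, EIF4G1 lies farthest left at −0.57, and the eIF3 genes lie between −0.28 and 0.22.

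Within eIF2, the heterotrimer that carries the initiator tRNA, the subunits moved apart. EIF2S2 (ENSG00000125977, chromosome 20, 34088298 to 34112332 on the minus strand, GRCh38), which encodes the beta subunit, was at 182, 183 and 186 CPM in the control libraries and 324, 316 and 317 CPM in the POLK sgRNA libraries, each set in the order of libraries 1, 2 and 3. It rose in all 3 POLK sgRNA libraries to 174% of the control mean (log2 fold change 0.80, SE 0.023, adjusted p 6.6e-25, edgeR quasi-likelihood test). EIF2S1, the alpha subunit that stress kinases phosphorylate, was at 150.3, 152 and 151 CPM in the control libraries and 141, 131 and 137 CPM in the POLK sgRNA libraries. It fell (log2 fold change −0.15, SE 0.026, adjusted p 8.5e-06, edgeR quasi-likelihood test), and the groups did not overlap. EIF2S3, the gamma subunit that binds GTP and the tRNA, was at 441, 430.4 and 439.9 CPM in the control libraries and 406, 402 and 400.0 CPM in the POLK sgRNA libraries, and it too fell without overlap (log2 fold change −0.12, SE 0.022, adjusted p 1.6e-05, edgeR quasi-likelihood test). Expressed per kilobase of each gene's longest principal transcript, the ratio of EIF2S2 to EIF2S1 level was 2.06 ± 0.0309 (SD, n = 3) in control and 3.96 ± 0.0905 in POLK sgRNA libraries, that of EIF2S2 to EIF2S3 was 0.453 ± 0.00731 and 0.852 ± 0.00743, and that of EIF2S1 to EIF2S3 was 0.220 ± 0.00413 and 0.216 ± 0.00670. The beta subunit's transcript stood higher against both partners in every POLK sgRNA library, while the ratio of the other two overlapped between groups. Of 12 such ratios computed among the factors, 7 are given in the text, none with a test.

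Outside the trimer, EIF2D, a factor for tRNA delivery and ribosome recycling that does not use eIF2, was at 66.1, 66.4 and 67.5 CPM in the control libraries and 87.1, 87.00 and 89.02 CPM in the POLK sgRNA libraries. It rose (log2 fold change 0.40, SE 0.028, adjusted p 3.1e-14, edgeR quasi-likelihood test; chromosome 1, 206571292 to 206612463 on the minus strand), with the highest control library below the lowest POLK sgRNA library. EIF2A, another factor that can bring initiator tRNA, was at 151 ± 1.18 CPM and 166 ± 2.99 CPM and rose by a log2 fold change of 0.13.

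Transcripts of eIF2B, the exchange factor for eIF2 and the sensor of eIF2 phosphorylation, moved in different directions. Of 5 genes, 2 rose, 2 fell and 1 did not pass, where 32.8% of all tested genes rose and 31.6% fell. EIF2B1, the alpha subunit of the regulatory part, was at 109, 112 and 114 CPM in the control libraries and 163, 159 and 157 CPM in the POLK sgRNA libraries. It rose to 143% of control (log2 fold change 0.52, SE 0.026, adjusted p 1.7e-18, edgeR quasi-likelihood test; chromosome 12, 123620406 to 123633766 on the minus strand). EIF2B4, the delta subunit of the same regulatory part, was at 65.6, 67.4 and 68.01 CPM in the control libraries and 46.4, 48.1 and 48.7 CPM in the POLK sgRNA libraries. It fell to 71.3% of control (log2 fold change −0.49, SE 0.032, adjusted p 2.4e-15, edgeR quasi-likelihood test; chromosome 2, 27364352 to 27370486 on the minus strand). EIF2B5, the epsilon subunit with the catalytic site, was at 84.8, 82.97 and 86.2 CPM in the control libraries and 62.7, 62.4 and 63.2 CPM in the POLK sgRNA libraries, and it fell to 74.1% of control (log2 fold change −0.43, SE 0.029, adjusted p 5.4e-15, edgeR quasi-likelihood test; chromosome 3, 184135038 to 184146112 on the plus strand). None of these 3 genes overlapped between groups, and 67.7% of all tested genes did not either. For all 3, neighbouring genes had moved the same way, with median log2 fold changes of 0.53, −0.17 and −0.34 in that order, described below. EIF2B2, the beta subunit, at 63.99 ± 2.94 CPM and 68.9 ± 1.01 CPM, rose (adjusted p 0.0054, edgeR) and did not pass without control library 1 (log2 fold change 0.062, adjusted p 0.10). EIF2B3, the gamma subunit that partners epsilon, had overlapping groups at 43.6 ± 1.74 CPM and 44.04 ± 1.13 CPM. Per kilobase, EIF2B1 stood to EIF2B4 at 1.21 ± 0.00585 in control and 2.42 ± 0.0998 in POLK sgRNA libraries, and EIF2B4 to EIF2B5 at 1.17 ± 0.0291 and 1.13 ± 0.0261.

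**Figure D2:**
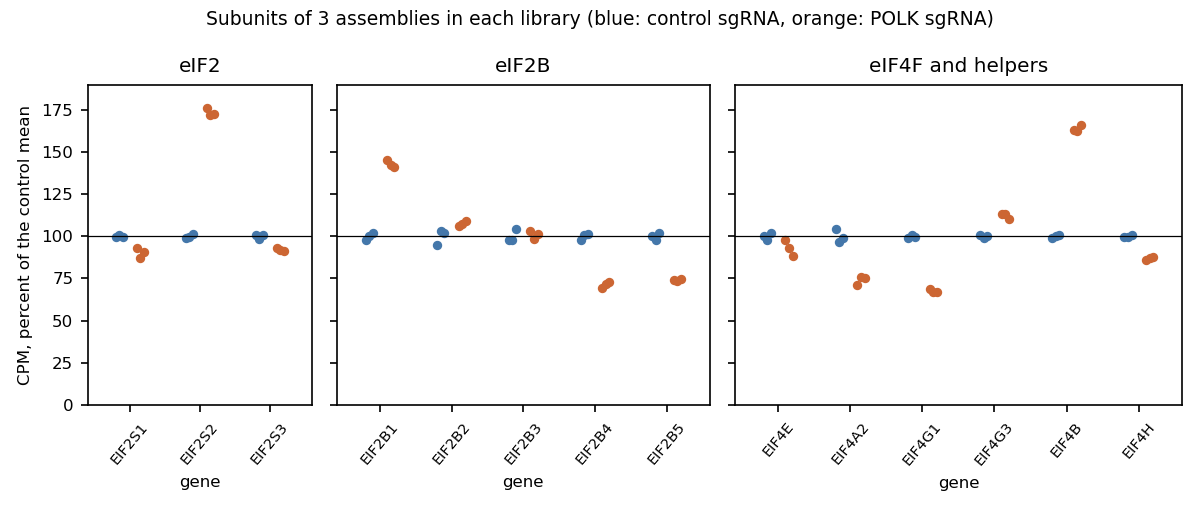
Level of each subunit gene in each library as a percent of its control mean (y axis), for eIF2, eIF2B and the eIF4 factors, with 3 control sgRNA libraries in blue and 3 POLK sgRNA libraries in orange. EIF2S2, EIF2B1 and EIF4B lie above their control libraries, and EIF2B4, EIF2B5, EIF4A2 and EIF4G1 lie below theirs, within the same assemblies.

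The eIF4 factors held the second largest rise and the largest fall. EIF4B (ENSG00000063046, chromosome 12, 53006158 to 53042209 on the plus strand), which stimulates the helicase eIF4A, was at 653, 660.5 and 664 CPM in the control libraries and 1073, 1071 and 1096 CPM in the POLK sgRNA libraries. It rose to 164% of control (log2 fold change 0.71, SE 0.021, adjusted p 1.3e-24, edgeR quasi-likelihood test). EIF4H, a smaller protein that also stimulates eIF4A, was at 654 ± 5.02 CPM and 568 ± 6.70 CPM, and it fell (log2 fold change −0.20, SE 0.021, adjusted p 3.4e-10, edgeR quasi-likelihood test). Per kilobase, EIF4B stood to EIF4H at 0.651 ± 0.00371 in control and 1.23 ± 0.0138 in POLK sgRNA libraries, with no overlap between groups.

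EIF4G1 (ENSG00000114867, chromosome 3, 184314495 to 184335358 on the plus strand), the scaffold that ties the cap-binding protein to the helicase and to eIF3, was at 1221, 1243 and 1227 CPM in the control libraries and 845, 823 and 821 CPM in the POLK sgRNA libraries. It fell to 67.5% of control (log2 fold change −0.57, SE 0.021, adjusted p 5.9e-22, edgeR quasi-likelihood test). Its relative EIF4G3, a second scaffold that binds eIF4E, was at 171, 168 and 171 CPM in the control libraries and 193, 193 and 188 CPM in the POLK sgRNA libraries. It rose (log2 fold change 0.17, SE 0.024, adjusted p 1.5e-07, edgeR quasi-likelihood test), again with no overlap. EIF4G2, which lacks the part that binds eIF4E, was at 651, 655 and 646 CPM in the control libraries and 637, 614 and 611 CPM in the POLK sgRNA libraries. Its fall was small (log2 fold change −0.068, SE 0.022, adjusted p 0.0073, edgeR quasi-likelihood test) and did not pass without POLK sgRNA library 2 (adjusted p 0.057) or 3 (0.054). The 3 genes summed to 2051 ± 12.9 CPM in control and 1642 ± 29.5 CPM in POLK sgRNA libraries.

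Among the eIF4A helicases, EIF4A2 (chromosome 3, 186783205 to 186789900 on the plus strand) was at 262, 243 and 248 CPM in the control libraries and 179, 189.7 and 189 CPM in the POLK sgRNA libraries. It fell to 74.1% of control (log2 fold change −0.43, SE 0.028, adjusted p 6.3e-13, edgeR quasi-likelihood test), and every POLK sgRNA library lay below every control library. EIF4A1, the paralog usually described as the main form in growing cells, was at 38.4, 39.9 and 36.3 CPM in the control libraries and 34.8, 37.4 and 38.1 CPM in the POLK sgRNA libraries, and the groups overlapped (log2 fold change −0.057, adjusted p 0.22 in the same edgeR test). It passed as lower without control library 3 (adjusted p 0.047). In GENCODE 29, 48.6% of its exonic bases also lie in exons of other genes, among them the read-through gene SENP3-EIF4A1, so reads there cannot be assigned to 1 gene by position and its level is uncertain. EIF4A3, a relative that marks exon junctions after splicing, was at 172 ± 4.70 CPM and 147 ± 1.24 CPM and fell by 0.22 on the log2 scale.

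**Figure D3:**
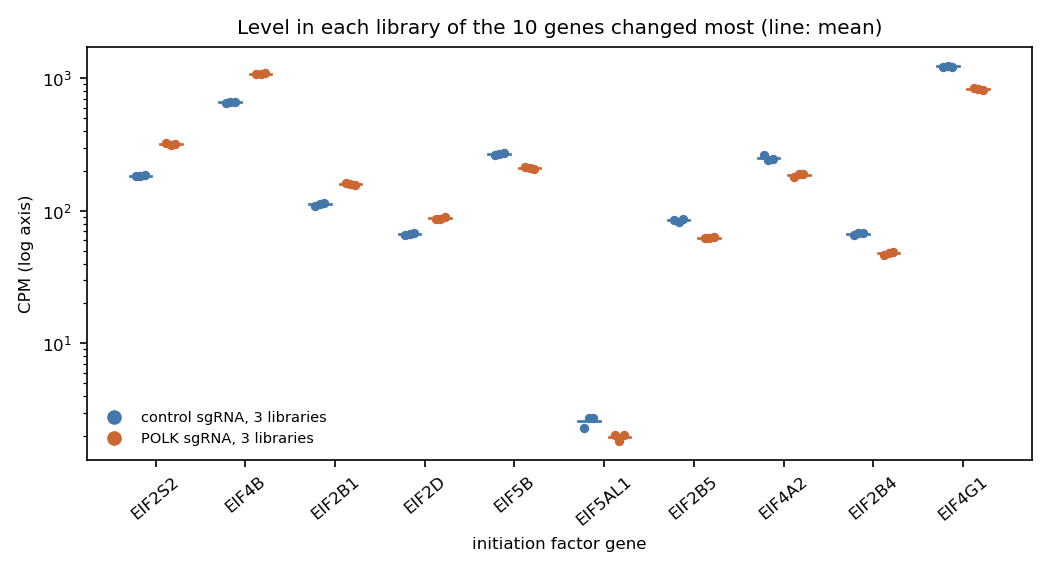
CPM in each library (log y axis) for the 10 initiation factor genes that passed the test with a log2 fold change of at least 0.32 in size, ordered from the largest rise to the largest fall, with group means as lines. The 3 control and 3 POLK sgRNA libraries do not overlap for any of the 10, and EIF5AL1, at 2 to 3 CPM, lies far below the rest.

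The tested genes of cap-binding proteins differed little, with log2 fold changes of −0.10 for EIF4E and 0.075 for EIF4E2. EIF4E, which binds the mRNA cap, was at 82.6, 80.98 and 84.4 CPM in the control libraries and 80.7, 76.8 and 73.00 CPM in the POLK sgRNA libraries. It fell (log2 fold change −0.10, SE 0.032, adjusted p 0.0054, edgeR quasi-likelihood test), and it did not pass without POLK sgRNA library 3 (log2 fold change −0.067, adjusted p 0.068). EIF4E2, a cap-binding relative known as a repressor, was at 94.4, 96.4 and 102 CPM in the control libraries and 105, 103 and 101 CPM in the POLK sgRNA libraries, so the groups overlapped. It passed (adjusted p 0.023, edgeR) and lost the call in DESeq2 (adjusted p 0.090) and in edgeR without control library 1 (log2 fold change 0.047, adjusted p 0.19), control library 2 (0.12), POLK sgRNA library 1 (0.094) or POLK sgRNA library 2 (0.056). EIF4E3 was at 0.210, 0.0916 and 0.208 CPM and 0.193, 0.171 and 0.204 CPM, too low for a test. EIF4ENIF1, the eIF4E transporter that holds eIF4E in the nucleus and in granules, was at 20.96, 19.7 and 19.6 CPM in the control libraries and 16.2, 16.9 and 16.96 CPM in the POLK sgRNA libraries and fell (log2 fold change −0.27, SE 0.048, adjusted p 1.4e-05, edgeR quasi-likelihood test).

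Promoter sequences were searched for motifs because genes of the eIF4 group moved in opposite directions. The table of RefSeq promoters used here (GRCh38.p14) matched 40 of the 47 genes. EIF2S2, EIF3A, EIF3CL, EIF3E, EIF3G, EIF3H and EIF3L had no entry in it and were not searched. The 250 bases before each RefSeq start were searched on both strands for the E-box CACGTG, bound by MYC, MAX and USF proteins, for the ETS core CCGGAAG, for TGATGNAAN, the amino acid response element bound by ATF4 and CEBP proteins, for the palindromic NRF1 motif (exact match to its consensus) and for the GC box GGGCGG, bound by SP proteins. These 5 motifs are all that were searched. The E-box was in 10 of the 40 promoters (25%), against 6.34% of all 35116 RefSeq promoters and 8.74% of the 10845 promoters matched to tested genes. The 4 genes of eIF4F and its helpers that hold it are shown because they share the motif and did not move together, and they were chosen after the matches and the expression values were seen. They are written 5′ to 3′, with the E-box in capitals, and in GENCODE 29 all 4 genes begin upstream of the RefSeq start.
EIF4B (chr12:53006206-53006455, plus strand): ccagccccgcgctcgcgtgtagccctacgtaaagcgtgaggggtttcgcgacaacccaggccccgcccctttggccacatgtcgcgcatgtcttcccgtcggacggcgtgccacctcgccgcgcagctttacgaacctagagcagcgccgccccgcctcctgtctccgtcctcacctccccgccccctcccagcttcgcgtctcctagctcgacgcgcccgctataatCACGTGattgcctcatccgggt
EIF4H (chr7:74174106-74174355, plus strand): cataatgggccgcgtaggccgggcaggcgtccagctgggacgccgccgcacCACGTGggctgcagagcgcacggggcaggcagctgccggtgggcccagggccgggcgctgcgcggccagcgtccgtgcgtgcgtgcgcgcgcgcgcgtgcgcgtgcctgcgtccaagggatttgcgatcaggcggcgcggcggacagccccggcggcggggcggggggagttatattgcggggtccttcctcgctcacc
EIF4E (chr4:98929134-98929383, minus strand): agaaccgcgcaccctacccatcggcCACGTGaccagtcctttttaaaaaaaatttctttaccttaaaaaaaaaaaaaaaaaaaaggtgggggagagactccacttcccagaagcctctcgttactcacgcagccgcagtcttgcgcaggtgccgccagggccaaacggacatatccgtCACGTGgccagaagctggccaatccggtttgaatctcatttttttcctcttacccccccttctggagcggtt
EIF4G1 (chr3:184314356-184314605, plus strand): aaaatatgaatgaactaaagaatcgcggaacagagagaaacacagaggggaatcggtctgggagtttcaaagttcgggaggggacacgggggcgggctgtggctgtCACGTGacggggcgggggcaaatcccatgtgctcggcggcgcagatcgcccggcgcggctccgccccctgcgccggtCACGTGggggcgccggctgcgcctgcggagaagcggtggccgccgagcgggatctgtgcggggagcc
EIF4B and EIF4H hold 1 E-box each, EIF4E and EIF4G1 hold 2, and of these genes EIF4B rose and the other three fell. Over all 10 promoters with an E-box, 3 genes rose, 6 fell and 1 did not pass. The ETS core was in 7 of the 40 (17.5%, against 8.52% of all promoters and 15.1% of those of tested genes), and of these 7 genes, 6 rose (EIF2A, EIF2B1, EIF3I, EIF3M, EIF4E2 and EIF6) and EIF5A2 fell. Beside these counts, 37.8% of the 45 tested factors rose and 44.4% fell, against 32.8% and 31.6% of all tested genes. Any link between a motif and the direction of change was not tested. The amino acid response element was in none of the 40 windows, in 3.13% of all promoters and in 1.57% of those of tested genes, and the NRF1 motif was in none of the 40, in 1.03% of all promoters and in 1.85% of those of tested genes, which says only that these letters are not in those windows. The GC box was in 26 of the 40 (65%, against 42.6% of all promoters and 66.4% of those of tested genes), and of these 26 genes 10 rose, 10 fell, 4 did not pass and 2 were not tested. A match is a description of the sequence. Each motif was counted on its own, whether or not it overlapped another.

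eIF3, the largest initiation factor, had a summed transcript level of 4505 ± 58.7 CPM in control and 4533 ± 15.3 CPM in POLK sgRNA libraries, a difference smaller than the control SD. Of 14 genes, 7 rose, 3 fell and 4 did not pass, and log2 fold changes ran from −0.28 to 0.22, with a median of 0.099. Over all tested genes, 32.8% rose and 31.6% fell. The largest change that passed was in EIF3J, a loosely bound subunit that acts in start site selection and recycling, at 180.0, 177 and 176 CPM in the control libraries and 152, 142 and 144 CPM in the POLK sgRNA libraries. It fell to 82.1% of control (log2 fold change −0.28, SE 0.026, adjusted p 1.6e-11, edgeR quasi-likelihood test) with no overlap. EIF3A, the large subunit around which the complex is built, was at 919 ± 26.9 CPM and 852 ± 18.98 CPM and fell by 0.11 on the log2 scale. EIF3B, another core subunit, at 477 ± 5.11 CPM and 466 ± 16.5 CPM, did not pass (adjusted p 0.22 in edgeR's test), but passed as lower without POLK sgRNA library 3 (adjusted p 0.032).

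Leaving EIF3C aside, the eIF3 genes that rose did so by log2 fold changes of 0.096 to 0.16. EIF3M, a subunit with a PCI domain, and EIF3F, a subunit with an MPN domain, rose from 253 ± 5.33 CPM to 283 ± 0.974 CPM and from 199 ± 2.60 CPM to 219 ± 0.957 CPM. EIF3G, an RNA-binding subunit, rose from 296 ± 3.24 CPM to 331 ± 3.25 CPM, and its partner EIF3I from 553 ± 15.7 CPM to 594 ± 7.43 CPM. EIF3D, a subunit that can itself bind the cap, rose from 228 ± 2.25 CPM to 245 ± 3.49 CPM, and EIF3K from 222 ± 6.89 CPM to 237 ± 2.10 CPM. EIF3E fell from 388 ± 3.42 CPM to 369.8 ± 4.18 CPM. EIF3H and EIF3L had log2 fold changes of 0.033 and −0.042 and did not pass, though EIF3H passed with library size alone (adjusted p 0.040) and EIF3L without control library 1 (0.036). EIF3C rose from 33.99 ± 3.30 CPM to 39.4 ± 1.35 CPM (log2 fold change 0.21, and 0.13 without control library 2), and EIF3CL, at 2.41 ± 0.149 CPM and 2.81 ± 0.252 CPM, did not pass (log2 fold change 0.22, adjusted p 0.094, edgeR). EIF3C and EIF3CL are near-identical copies on chromosome 16, so reads can be split between them or discarded and both values are uncertain. On the scale of CPM per kilobase, the control level of EIF3C was 10.8, against 138 for EIF3A and 156 for EIF3B. EIF3L has 51.8% of its exonic bases in exons of other annotated genes and is uncertain as well.

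Start codon factors moved apart as well. EIF1, which keeps the scanning ribosome from starting at the wrong codon, was at 424, 420.0 and 417 CPM in the control libraries and 523, 509.6 and 508 CPM in the POLK sgRNA libraries. It rose (log2 fold change 0.29, SE 0.022, adjusted p 1.2e-13, edgeR quasi-likelihood test) without overlap. Its close relative EIF1B was at 54.5, 53.97 and 55.2 CPM in the control libraries and 49.97, 49.4 and 48.2 CPM in the POLK sgRNA libraries and fell (log2 fold change −0.15, SE 0.032, adjusted p 1.5e-04, edgeR quasi-likelihood test). EIF1AX, the eIF1A that works beside eIF1 on the small subunit, fell from 230.3 ± 2.63 CPM to 189.7 ± 4.29 CPM, a log2 fold change of −0.28. Per kilobase, EIF1 stood to EIF1AX at 3.47 ± 0.0206 in control and 5.14 ± 0.0327 in POLK sgRNA libraries. EIF1AD, which carries an eIF1A-like domain, had overlapping groups at 38.9 ± 1.42 CPM and 37.7 ± 0.407 CPM.

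Among the late factors 1 gene fell and 1 rose (over all tested genes, 31.6% fell and 32.8% rose). EIF5B, the GTPase that joins the large subunit, was at 266, 270.0 and 275 CPM in the control libraries and 213, 209 and 207 CPM in the POLK sgRNA libraries. It fell to 77.6% of control (log2 fold change −0.37, SE 0.023, adjusted p 1.1e-15, edgeR quasi-likelihood test; chromosome 2, 99337353 to 99401326 on the plus strand), with no overlap. EIF6, which binds the free large subunit and keeps it from joining too early, rose from 151 ± 3.68 CPM to 184 ± 2.77 CPM (log2 fold change 0.29). EIF5, which triggers GTP hydrolysis on eIF2, did not pass at 230.2 ± 0.692 CPM and 235 ± 5.97 CPM.

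All 3 genes of eIF5A, a factor with the modified residue hypusine that helps ribosomes through difficult peptide bonds, fell. EIF5A was at 1367, 1414 and 1457 CPM in the control libraries and 1255, 1219.7 and 1232 CPM in the POLK sgRNA libraries (log2 fold change −0.19, SE 0.023, adjusted p 4.1e-09, edgeR quasi-likelihood test), and its 935 CPM per kilobase was the highest control level of the 47 genes on that scale. EIF5A2, the paralog often described as raised in tumours, was at 9.36, 10.1 and 9.97 CPM in the control libraries and 8.10, 8.40 and 7.51 CPM in the POLK sgRNA libraries, a much lower level, and fell as well (log2 fold change −0.30, SE 0.067, adjusted p 2.4e-04, edgeR quasi-likelihood test). EIF5AL1, a copy that closely resembles EIF5A, was at 2.31, 2.73 and 2.73 CPM in the control libraries and 2.03, 1.84 and 2.04 CPM in the POLK sgRNA libraries (log2 fold change −0.40, SE 0.12, adjusted p 0.0055, edgeR quasi-likelihood test). None of the 3 overlapped between groups. Of all tested genes, 31.6% fell and 67.7% did not overlap. EIF5A and EIF5AL1 can share reads, so the value of EIF5AL1 is uncertain.

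Most of the large changes lay among neighbouring genes that had moved the same way. For each factor, the median log2 fold change was taken over the 25 nearest tested genes on each side on its chromosome. That median was at least 0.1 in size for 9 of the 45 factors (20.0%), as for 20.0% of all 13902 genes with a position. All 9 factors had the sign of their neighbours, as 78.0% of all such genes had. Of the 10 factors with a called log2 fold change of at least 0.32 in size, 8 were among these 9, and EIF2D and EIF5AL1 were not. A called change of that size was found in 51.4% of all genes with shifted neighbours and in 23.2% of the rest. The 36 factors elsewhere ran from −0.40 to 0.40, and 13 of them rose (36.1%, against 30.1% of the 11124 genes without shifted neighbours) and 15 fell (41.7%, against 30.9%). Those 11124 genes were not matched to the factors by level. Among the 4573 tested genes with a control mean of at least 50 CPM, whatever their neighbours, 27.6% rose and 45.6% fell. Over the 45 factors, the gene's own value and its neighbours' median had a Pearson r of 0.81 and a Spearman rho of 0.64, against 0.24 and 0.28 over all 13902 genes, as a description across genes that share libraries and, in part, neighbours. The 2 sets were not matched by level. A control mean of at least 50 CPM was reached by 37 of the 45 factors, against 4573 of all 13930 tested genes. A correlation over genes of like level was not computed.

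The factors differed in how much of their change their neighbours shared. On chromosome 12, EIF2B1 had a log2 fold change of 0.52 beside a neighbours' median of 0.53, and EIF4B had 0.71 beside 0.54. On chromosome 20, EIF6 had 0.29 beside 0.26, and EIF2S2 had 0.80 beside 0.46, so EIF2S2 lay 0.34 above its neighbourhood. On chromosome 3, EIF4A2 had −0.43 beside −0.48, EIF2B5 had −0.43 beside −0.34 and EIF4G1 had −0.57 beside −0.40. On chromosome 2, EIF5B had −0.37 beside −0.29 and EIF2B4 had −0.49 beside −0.17. EIF2D, in contrast, had 0.40 beside 0.040, EIF1 had 0.29 beside 0.0095, EIF3J had −0.28 beside −0.042 and EIF1AX had −0.28 beside 0.00057. With the neighbours' median taken away, EIF2B1 and EIF4A2 stood at −0.016 and 0.050. The part of chromosome position in these changes was not tested.

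**Figure D4:**
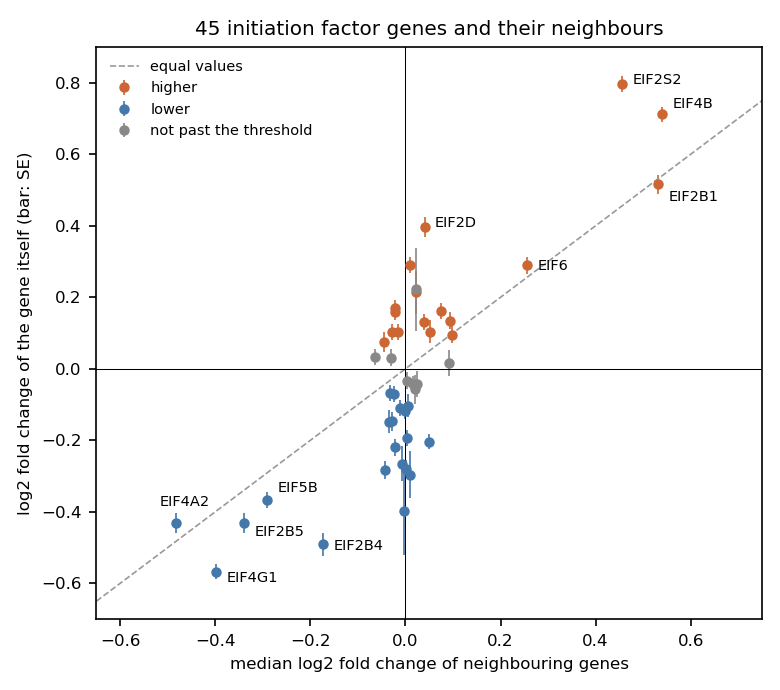
Log2 fold change of each of the 45 tested initiation factor genes (y axis, SE as bars) against the median log2 fold change of its neighbouring genes (x axis), with a dashed line of equal values. EIF2B1, EIF6 and EIF4A2 lie near the line, EIF2S2 lies 0.34 above it, and EIF2D lies near 0 on the x axis at 0.40.

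Genes that control or work beside the initiation factors were described from 6 lists, whose counts stand beside 32.8% of all tested genes that rose and 31.6% that fell. These shares cover genes of every level. With a control mean of at least 50 CPM, 27.6% of tested genes rose and 45.6% fell. Among eIF2 kinases, the phosphatase that reverses them and GCN2 partners, 2 of 14 tested genes rose and 6 fell, and the median log2 fold change was −0.041 (0.0083 for all tested genes). GCN1, which relays uncharged tRNA to the kinase GCN2, rose from 178 ± 2.000 CPM to 344 ± 10.6 CPM (log2 fold change 0.96, neighbours' median 0.66). PPP1CC, a catalytic subunit of protein phosphatase 1, rose by a log2 fold change of 0.51 beside a neighbours' median of 0.62. DNAJC3, a chaperone also known as an inhibitor of eIF2 kinases, fell from 86.7 ± 0.716 CPM to 58.4 ± 1.92 CPM (neighbours' median −0.016). Of the kinases, EIF2AK3 (PERK), which senses endoplasmic reticulum stress, fell from 23.2 ± 0.336 CPM to 17.3 ± 0.887 CPM, beside a neighbours' median of −0.25, and EIF2AK4 (GCN2) fell from 144 ± 2.27 CPM to 137 ± 1.69 CPM. EIF2AK1 (HRI) and EIF2AK2 (PKR) did not pass, with log2 fold changes of −0.056 and −0.026.

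Of 13 tested genes that control eIF4F, 5 rose and 2 fell (32.8% and 31.6% of all tested genes), and the median log2 fold change was 0.036. PDCD4, which blocks eIF4A, rose from 93.8 ± 4.58 CPM to 119.6 ± 2.01 CPM. EIF4EBP1 and EIF4EBP2, which block eIF4E until mTOR phosphorylates them, rose from 194 ± 6.16 CPM to 222 ± 2.16 CPM and from 102 ± 2.27 CPM to 122 ± 1.65 CPM. EIF4EBP3 was under the filter, at 0.245 ± 0.0944 CPM and 0.121 ± 0.0441 CPM. Of 7 poly(A)-binding protein genes and partners, 1 rose and 4 fell (median −0.070). PABPC1, which joins the mRNA tail to eIF4G, fell from 1896 ± 29.9 CPM to 1577 ± 31.1 CPM and its partner PAIP1 from 141 ± 0.657 CPM to 122 ± 1.06 CPM (neighbours' medians −0.060 and 0.081). PABPC1L rose from 21.9 ± 2.33 CPM to 35.5 ± 0.862 CPM (log2 fold change 0.71, neighbours' median 0.22). These relatives can share reads.

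Of 11 tested genes of scanning helicases, recycling, reinitiation and nuclear cap binding, 1 rose and 8 fell, with a median of −0.10. As for the other lists, 32.8% of all tested genes rose and 31.6% fell. Among tested genes with a control mean of at least 50 CPM, 27.6% rose and 45.6% fell, with a median of −0.041. DENR, a reinitiation factor, rose by 0.48 beside a neighbours' median of 0.56, NCBP2, of the nuclear cap-binding complex, fell by 0.32 beside −0.46, and the scanning helicase DHX29 fell by 0.32 beside −0.048 (log2 scale). Of 10 tested elongation factor genes, 5 rose and 2 fell, with a median of 0.075. EEF1A2, the eEF1A form of muscle and neurons that tumours can express, fell from 201 ± 5.68 CPM to 46.3 ± 2.48 CPM (log2 fold change −2.12, SE 0.032), beside a neighbours' median of 0.11. EEF1A1, the general form, rose from 7450.2 ± 81.8 CPM to 8388 ± 67.7 CPM and has many near copies, so its value is uncertain. DHPS, which starts the hypusine modification of eIF5A, rose from 104 ± 2.19 CPM to 121 ± 1.48 CPM (log2 fold change 0.23, neighbours' median 0.17). Of 6 tested termination genes, 4 rose and 1 fell (median 0.16). TRMT112, a partner of the enzyme that methylates release factors, rose by 0.31, the helicase UPF1 rose by 0.16 and the release factor ETF1 fell by 0.22 on the log2 scale.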

How the data were processed

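RNA was sequenced in 6 libraries of A375 cells, 3 per sgRNA, grouped by the titles in the labels. The deposited table holds the authors' whole-number counts, unscaled, with 1 row for each gene and 1 column for each library. FastQC, Trimmomatic, STAR, DESeq2 and the build GRCh38 are named in the submitters' processing notes. The sources used here do not give the counting tool, the annotation or any version. Per the labels' protocols the TruSeq RNA V2 kit was used, and it does not mark strand, so genes that overlap or resemble others are uncertain. Besides EIF4A1 and EIF3L, exons of other genes held 24.2% of exonic bases in EIF4E2, 23.6% in EIF2B2 and 17.9% in EIF4A2. In EIF6 the share was 17.4%, in EIF2B1 15.55%, in EIF4B 11.9%, in EIF5B 10.8% and in EIF2B3 10.2%. It was lower in the other factors.

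Genes were filtered with edgeR 4.0.16's filterByExpr (10 as minimum count and 15 as minimum total, 13930 of 16934 genes kept), scaled by TMM (factors 0.991 to 1.007) and compared with the quasi-likelihood F test (two-sided, robust, without covariates, R 4.3.3). The p-values were adjusted by Benjamini-Hochberg over all tested genes at a threshold of 0.05. SE was obtained from the log2 fold change and F. Positions, exon overlaps and transcript lengths came from GENCODE 29 (GRCh38), promoters from RefSeq (GRCh38.p14). Libraries of a group differed by more than sampling noise (chi-square per degree of freedom 1.95 to 3.90 over 6 pairs, and 60.6 to 73.1 over 9 pairs across groups).

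Tested on simulated counts of this comparison (13841 genes), the test recovered 38% of genes changed 1.1-fold, 80% at 1.25-fold, 84% at 1.5-fold and 96% at 2-fold. It called 18 of 13730 unchanged genes. Only 50 genes were changed at each fold, whereas 64.3% of tested genes were called in the data, so these rates may not carry over. The members, the related lists and the marker lists were chosen with earlier results of these data known. Full values went to members past a log2 fold change of 0.32, the smallest p in each complex, the paralogs of EIF1, EIF4A, EIF4E, EIF4G and EIF5A, and eIF2 subunits. Other members are given by means or fold changes, as are the 3 genes with the smallest p per related list and the EIF2AK and EIF4EBP genes, and the motifs, the printed promoters, the printed ratios and the neighbour threshold of 0.1 were chosen after values were seen. Alternatives were DESeq2 1.42.0 and its size factors, library size alone, no filter, a mean of 1 CPM, the replicate number as a block, limma-voom (limma 3.58.1), glmTreat with a minimum log2 fold change of 0.32, each library left out, and subtraction of the neighbours' median.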

Additional observations from a re-analysis of the deposited data

How the results depend on the processing

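The counts of 17 initiation factor genes higher and 20 lower stayed within 1.5 times under every alternative that gives a test except glmTreat, edgeR's test against a minimum log2 fold change of 0.32, in which 4 were higher and 5 lower. In that test 1653 of all tested genes were higher and 1224 lower. EIF2S2, EIF4B, EIF4G1 and the other large changes kept their direction throughout, except that with the neighbours' median subtracted EIF2B1 stood at −0.016 and EIF4A2 at 0.050 (values without a test). EIF3K, a smaller change with a log2 fold change of 0.096, stood at −0.0030 after the same subtraction. EIF2B3, which did not pass, changed sign with single libraries left out, from −0.0051 to 0.045 on the log2 scale. The cause was not tested. With the replicate number as a block, 17 factors were higher and 20 lower, so the block moved no count of factors. Libraries that share a number did not deviate together, with correlations of −0.036, −0.0068 and −0.042 for numbers 1, 2 and 3. The numbers were used here only to name the libraries. With 3 libraries per group, these correlations cannot show whether libraries were prepared in pairs. With 10 or 50 genes on each side in place of 25, chosen after seeing the data, 11 (24.4%, against 29.03% of all genes) and 10 factors (22.2%, against 16.5%) had neighbours shifted by at least 0.1, and 8 of the 10 large changes were among them with either number. EIF4E3, EIF1AY, EIF3CL and EIF5AL1 were at under 3 CPM on average in both groups, so their values rest on low counts. EIF1AY lies on chromosome Y, and EIF3CL and EIF5AL1 can share reads with near copies. The reason for the low levels was not tested.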
